A study of Anser cygnoides with 6 samples.

Results

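The genes described here encode a broad set of secreted and matrix proteins, from complement and alpha-macroglobulins to hormones, Wnt ligands and interferons, and were followed in goose liver whether or not the liver used them. They are the 173 of 21009 gene models in the deposited mRNA table that carry the Gene Ontology term for the extracellular region, after models with the terms for growth factor activity, insulin-like growth factor binding, immune response or serine-type endopeptidase activity were left out, and after models described as collagen, serpin, apolipoprotein, fibrinogen, transferrin or albumin were left out. The term stood on 257 models, of which 76 were removed by another term and 8 more by a word alone. The rule uses no measured value, and since it rests on these terms and words alone, complement proteins, defensins and interferons without the immune response term are among the members. Liver RNA came from 6 lion-head geese, 3 of them high-intake-fed and 3 normally fed, with 1 library per bird. All were healthy, purebred adults from one original population. The normally fed birds ate at will, and the high-intake-fed birds were force-fed in the manner of foie gras production. The paper states the same diet for all birds, but mentions boiled rice in describing the high-intake procedure. Feed was withheld overnight before sacrifice in both groups. Each group was kept in its own isolator, so that amount fed, force-feeding, any difference in feed and housing cannot be told apart. The sex of the 6 birds was not stated although the trial held both sexes. Birds 1, 2 and 3 of the normally fed group carry the library names CONTROL1, CONTROL3 and CONTROL5, and those of the high-intake-fed group are CASE2, CASE6 and CASE7.

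The liver makes most of the proteins of blood plasma. Hepatocytes secrete complement proteins, which tag and lyse microbes, and alpha-macroglobulins, which trap proteases that have escaped into the blood. Stellate cells, fibroblasts and endothelial cells lay down the matrix around them, built from fibrillins, fibulins, thrombospondins and fibronectin. Many other secreted proteins are hormones made in the brain, gut or pancreas, or signals such as Wnt ligands and interferons that are made in small amounts, and their genes carry the same term whether or not the liver uses them.

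Depth was 14154910 to 16993373 counts per library, and values below are CPM, that is counts relative to library size after TMM scaling (edgeR's trimmed mean method), unless said otherwise. Of the 173 members, 21 had no count in any library, 69 more had too few counts to be tested, with at most 68 counts over the 6 libraries, and 83 were tested. The members held 3.38%, 3.47% and 2.56% of the counts of normally fed birds 1 to 3, and 2.35%, 2.25% and 2.22% of those of the high-intake-fed birds. These shares did not overlap. Complement C3 alone made up 32.7% of all member counts and the 10 most counted members 89.1%. Without complement C3 the shares were 1.73% to 2.12% in the normally fed and 1.38% to 1.87% in the high-intake-fed birds, and then overlapped. In bulk liver, fewer cells of a type and less RNA per cell cannot be told apart.

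No member passed an adjusted p under 0.05 (edgeR's quasi-likelihood test, Benjamini-Hochberg over all 12914 tested mRNAs), where 1.47% of all tested mRNAs did. At an unadjusted p under 0.05 there were 17 of 83 members (20.5%, beside 18.4% of all tested mRNAs), 7 of them higher (8.67% of all tested mRNAs) and 10 lower (9.71%) in the high-intake-fed birds. DESeq2 placed 10 of the 85 members to which it gave an adjusted p under 0.05 (7.05% of all mRNAs), and edgeR's exact test 8 of 83 (6.26% of all mRNAs). The 8 of the exact test, all among the 10 of DESeq2, were beta defensin 2, the chromosome 19 agouti model and matrix Gla protein, which were higher, and fibrillin, the chromosome 1 fibulin-type model, macroglobulins 3 and 4 and the plasma kallikrein apple-domain model, which were lower. DESeq2 added complement C5 and the chromosome 6 thrombospondin, both lower. Of the 17 members at an unadjusted p under 0.05 in the quasi-likelihood test, 14 also had a fold of more than 2. These were 16.9% of the 83 members, beside 9.59% of all tested mRNAs, with 7 higher (4.26% of all tested mRNAs) and 7 lower (5.33%). The CPM of the groups did not overlap in 22 tested members (26.5%, beside 24.4%), and in 15 of them the high-intake-fed birds were the lower group (18.1%, beside 13.3%), against 7 where they were the higher group (8.43%, beside 11.1%). By the deposited FPKM the groups did not overlap in 16 of the 82 members with an FPKM above 0 (19.5%, beside 20.5% of all such mRNAs). Of the 22 members apart by CPM, 13 were also apart by FPKM, and the 9 others were the chromosome 32 macroglobulin, macroglobulin 1, the chromosome 8 Wnt model, neurotensin, guanylin, the chromosome 19 agouti model, the chromosome 27 endothelin, secreted phosphoprotein 24 and beta defensin 2. With 3 birds against 3 an exact permutation test of 1 gene cannot go below 0.1. The p-values weigh a difference between groups against the spread between birds, and do not separate feeding from housing.

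Abundant and scarce members leaned in different directions. Of the 37 tested members with a mean of at least 10 CPM, 29 (78.4%) had a log2 fold change below 0, with a median of -0.35, whereas 43.2% of all 7274 mRNAs at that level did, with a median of 0.07. Of the 46 members under 10 CPM, 20 (43.5%) lay below 0, with a median of 0.12, beside 52.3% and -0.04 over all mRNAs at that level. Over all 83 members the median was -0.19, beside 0.04 over all tested mRNAs. These are counts and medians over genes that share the same 6 birds, and no test was made of them.

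By role, the 17 macroglobulin and complement models held 68.9% of the members' counts and the 25 matrix and adhesion proteins 22.8%, of which 17 and 16 were tested. The matrix role includes the N-terminal model of the hepatocyte growth factor activator, a plasma protease. All 7 tested Wnt ligands had a log2 fold change above 0, and of the 17 macroglobulin and complement models 13 lay below 0, 3 above and 1 at 0.00. The role medians ran from -0.72 in macroglobulins and complement to 1.21 in the 5 tested antimicrobial and acute phase peptides. The latter was the value of beta defensin 3, which became -0.27 without high-intake-fed bird 1. Only beta defensin 2 had groups apart in that role. The term is loose in places: 1 member is condensin subunit 1, a chromosome protein whose description also carries a natriuretic peptide signature, at 9.84 to 34.8 CPM.

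**Figure D1:**
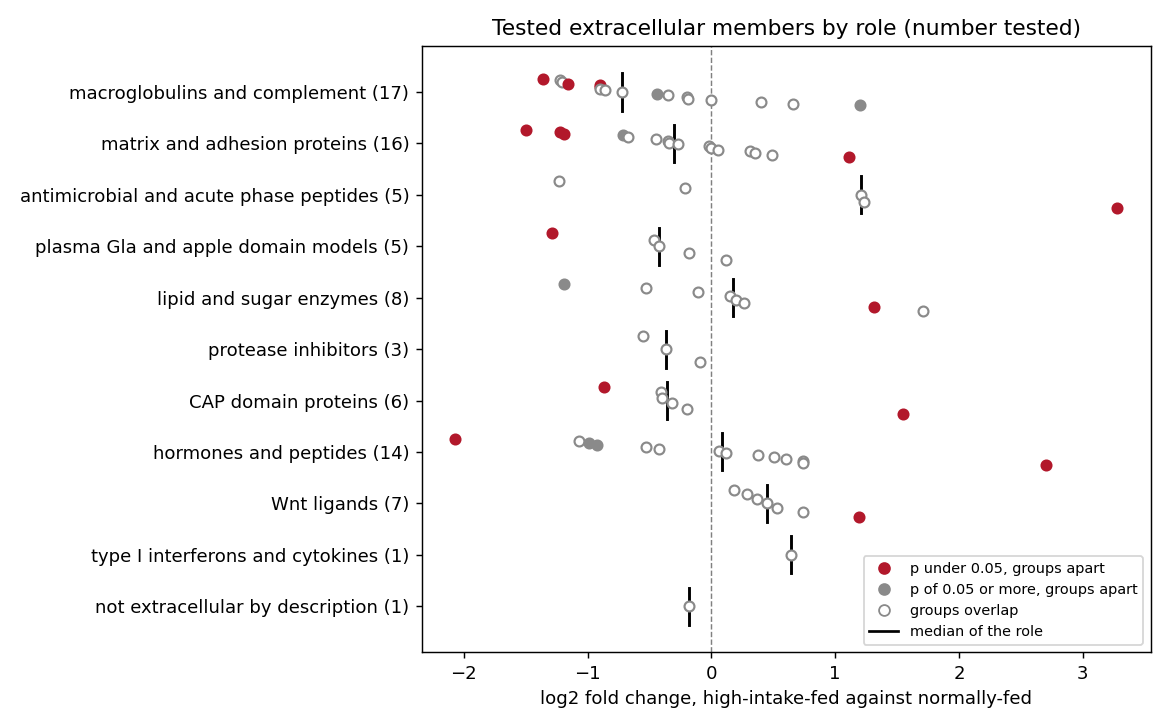
Log2 fold change (high-intake-fed against normally fed, horizontal axis) of the 83 tested members, one point per gene model, grouped by role with the number tested in brackets. Filled points are members whose 3 birds per group did not overlap, red ones have an unadjusted p under 0.05, and black bars are role medians, which run from -0.72 (macroglobulins and complement) to 1.21 (antimicrobial and acute phase peptides). The latter median is the value of beta defensin 3, in which high-intake-fed bird 1 alone stood out.

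Complement C3, the protein on which all routes of complement activation meet, was the most abundant member (chromosome 37, 917101 to 930965, in the coordinates of the deposited table, whose build the sources used here do not name). It stood at 11797, 13149 and 9090 CPM in normally fed birds 1 to 3 and at 5259, 9100 and 4344 CPM in the high-intake-fed birds. High-intake-fed bird 2 matched the lowest normally fed bird and the other two lay well below. The log2 fold change was -0.86 ± 0.41 (SE) and did not pass (adjusted p = 0.318, edgeR). Complement C5, which starts the membrane attack complex (chromosome 23, 2737938 to 2767835), was steadier, at 2099, 2061 and 1989 CPM against 1425, 1079 and 797 CPM. Its groups were well apart, with a log2 fold change of -0.90 ± 0.32 (adjusted p = 0.188, edgeR).

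Neither the chromosome 1 complement-type model nor the chromosome 30 macroglobulin, both with more CPM on average than C5, showed such a difference. The chromosome 1 complement-type model (30512316 to 30555509), which holds the domains of C3, C4 and C5 and was not named further, had 2069, 3502 and 3208 CPM in the normally fed and 3639, 1955 and 3176 CPM in the high-intake-fed birds. The groups overlapped throughout and the log2 fold change was 0.00 ± 0.37. The chromosome 30 macroglobulin, at 3077, 2142 and 1715 CPM against 1537, 3189 and 1320 CPM, overlapped as well (-0.20 ± 0.43).

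Alpha-macroglobulins are large plasma proteins that change shape when cut and close around the protease that cut them. Of the tested models of this family 7 lay side by side within 336 kb of chromosome 1 and are numbered here by position, from macroglobulin 1 (starting at 111299211) to macroglobulin 7 (ending at 111634881). They differed by orders of magnitude in level: per kilobase of coding length the mean over the 6 birds was 368 CPM in macroglobulin 4, 196 in macroglobulin 6 and 84.8 in macroglobulin 3, but 7.75 or less in the other four.

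Within this cluster the 3 most abundant models were lower in every high-intake-fed bird than in any normally fed bird. Macroglobulin 4 had 2326, 1994 and 1792 CPM in the normally fed and 1141, 729 and 874 CPM in the high-intake-fed birds, with no overlap. Its log2 fold change was -1.16 ± 0.31 (adjusted p = 0.113, edgeR). Macroglobulin 3 had 630, 486 and 512 CPM against 288, 217 and 131 CPM, again apart, with -1.36 ± 0.34 (adjusted p = 0.0967, edgeR). Macroglobulin 6 had 1047, 873 and 1074 CPM against 750, 697 and 759 CPM, which is apart but close, and did not pass (-0.44 ± 0.26, adjusted p = 0.41, edgeR).

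Macroglobulin 1 pointed the other way, at 7.04, 5.67 and 1.22 CPM in the normally fed and 7.93, 13.4 and 10.7 CPM in the high-intake-fed birds (1.2 ± 0.55, adjusted p = 0.302, edgeR). Macroglobulin 2 was split by bird rather than by group, with 19.3 CPM in normally fed bird 1 and 22.7 and 9.18 CPM in high-intake-fed birds 1 and 3, but 0.945 to 1.84 CPM in the other three. The deposited FPKM of this model, at most 0.00743 in any bird, did not show that split, so it rests on the counts. Macroglobulin 5 had 43.6, 41.3 and 19.3 CPM against 7.09, 6.92 and 30.8 CPM, where high-intake-fed bird 3 fell among the normally fed birds. Its log2 fold change was -1.21 ± 0.61 (adjusted p = 0.339), and -2.30 without that bird (adjusted p = 0.0355, edgeR). No other fit brought it past an adjusted p of 0.05. A model with macroglobulin domains, 1568 bases away on the same strand, had high-intake-fed bird 3 among the normally fed birds as well. Its values were 21.4, 25.1 and 8.89 CPM against 5.28, 2.98 and 17.1 CPM (-1.12 ± 0.64, adjusted p = 0.402, edgeR). Macroglobulin 7 stayed at 0.773 to 3.87 CPM in all 6 birds. Beside macroglobulin 4, 171 bases away on the same strand, lies a short model of 522 bases that holds an early macroglobulin domain and carries no extracellular term. It had 109.5, 90.7 and 78.4 CPM against 58.5, 33.9 and 47.2 CPM (-1.0 ± 0.26, adjusted p = 0.104, edgeR), with its birds set apart as those of macroglobulin 4 were.

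Outside the cluster, the chromosome 32 macroglobulin had 12.3, 18.1 and 12.6 CPM against 4.45, 10.1 and 8.45 CPM (-0.90 ± 0.34, adjusted p = 0.213, edgeR), with no overlap. CD109, a macroglobulin that is held on the cell surface by a lipid anchor, had 5.61 to 11.4 CPM in the normally fed and 4.24 to 6.35 CPM in the high-intake-fed birds (-0.72 ± 0.33).

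**Figure D2:**
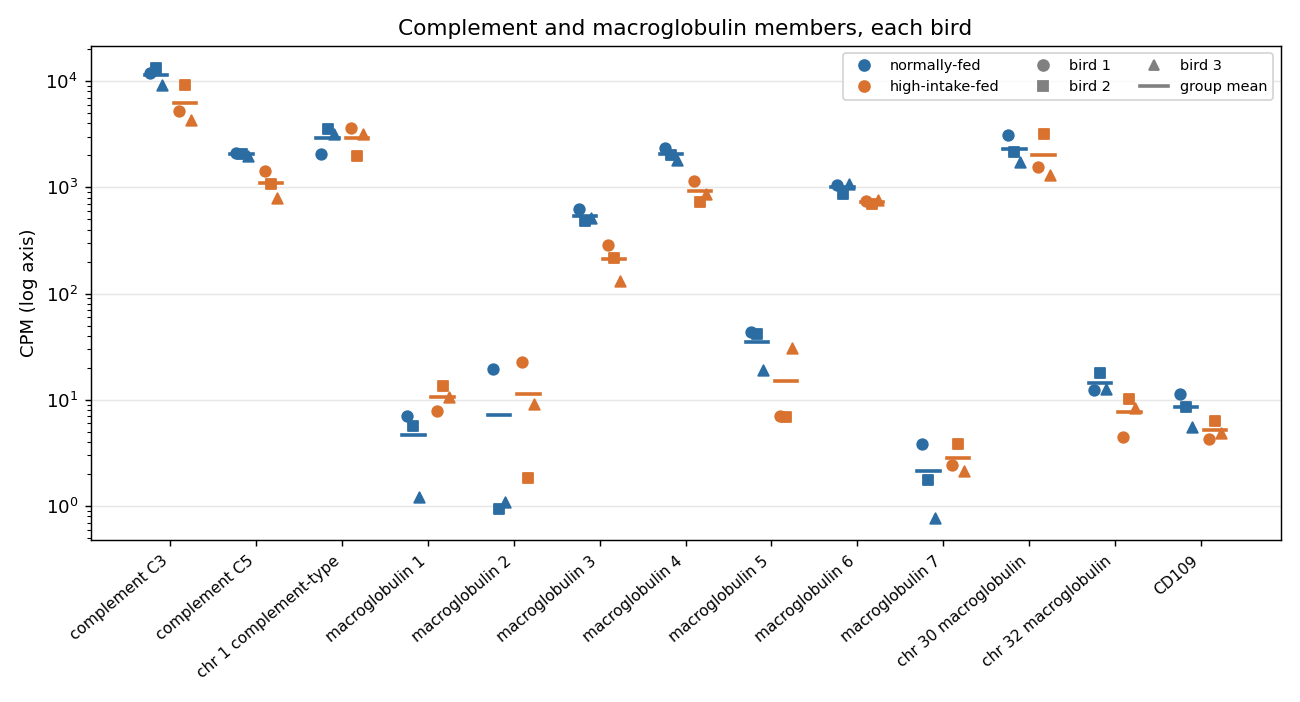
CPM on a log axis of 13 complement and macroglobulin members, with a point per bird (circle, square and triangle for birds 1, 2 and 3), normally fed in blue, high-intake-fed in orange, and a line at each group mean. Macroglobulins 3, 4 and 6 and complement C5 have all 3 orange points below all 3 blue ones, the chromosome 1 complement-type model does not, and macroglobulin 2 is split within both groups.

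The 4 remaining members of this role form 2 loci on chromosome 36, each of adjacent models of the C3/C4/C5 type. There are 563 bases between the parts of the first locus (1405965 to 1427514) and 562 between those of the second (1615107 to 1640921). Each locus may be a single gene cut by the annotation, which was not tested. The loci differed most in high-intake-fed bird 2, which had 200 and 108 CPM in the parts of the first locus, the highest of all birds, and 6.28 and 26.6 CPM in those of the second, the lowest. High-intake-fed bird 3 had more of the second locus (103 and 90.3 CPM) than any other bird of its group, but in the first locus its parts differed, the first (123 CPM) lying among the normally fed birds (115 to 176 CPM) and the second (33.2 CPM) below them (57.9 to 89.8 CPM). High-intake-fed bird 1 was low in both loci, with 44.4 and 24 CPM of the first and 54 and 40.05 CPM of the second. How alike the loci are in sequence was not examined. The loci were also summed, a step chosen after their values were seen. Reads shared between similar copies would leave the sum unchanged only if each was assigned to a single copy. How such reads were counted is not stated. The sum of both loci was 426, 460 and 418 CPM in the normally fed and 162, 341 and 349 CPM in the high-intake-fed birds. The sums did not overlap, and the log2 fold change of -0.61 ± 0.33 did not pass (adjusted p = 0.374, edgeR).

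**Figure D3:**
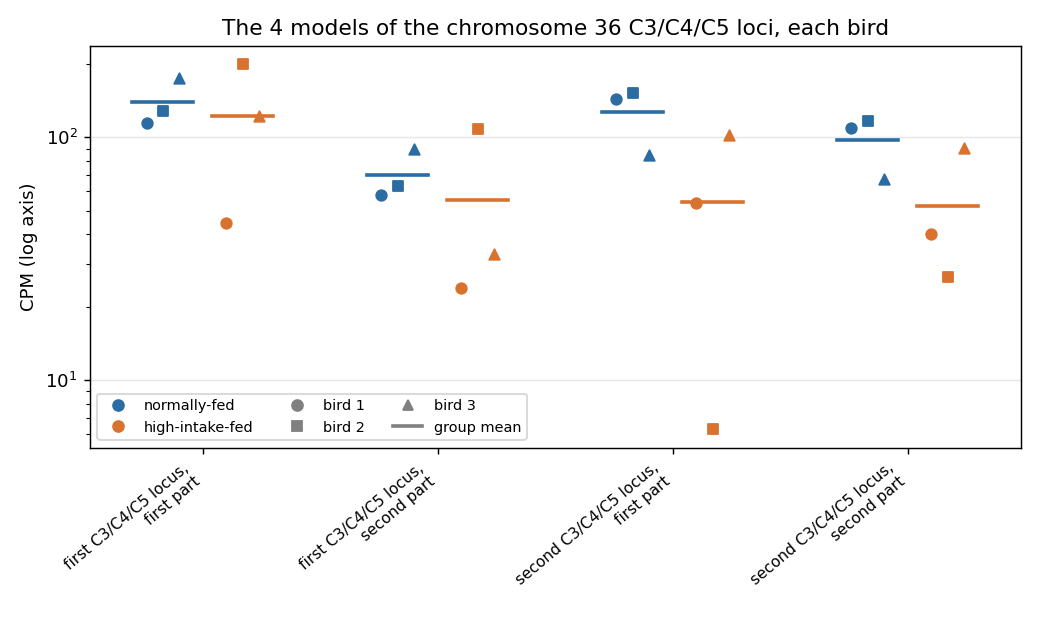
CPM on a log axis of the 4 gene models of the chromosome 36 loci, with a point per bird (circle, square and triangle for birds 1, 2 and 3), normally fed in blue, high-intake-fed in orange, and a line at each group mean. High-intake-fed bird 2 (orange square) is the highest bird in both parts of the first locus, at 200 and 108 CPM, and the lowest in both parts of the second, at 6.28 and 26.6 CPM.

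Among matrix proteins, fibrillin, which builds the microfibrils of elastic tissue (chromosome 13, 22157726 to 22247464), had 97.6, 129 and 168 CPM in the normally fed and 49, 62.7 and 27.9 CPM in the high-intake-fed birds. Every high-intake-fed bird lay below every normally fed bird. The log2 fold change was -1.50 ± 0.34 (adjusted p = 0.0807, edgeR). The chromosome 1 fibulin-type model (143625860 to 143677450), with the anaphylatoxin and EGF-like domains of the fibulins, which bridge elastic fibres and basement membranes, had 97.7, 110 and 124 CPM against 59, 24 and 59.3 CPM. The groups were apart (-1.22 ± 0.35, adjusted p = 0.127, edgeR), whereas those of the chromosome 12 fibulin-type model overlapped, at 17.4 to 28.9 CPM against 7.78 to 23.0 CPM (-0.67 ± 0.42).

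The chromosome 6 thrombospondin, a matrix protein that in mammals restrains vessel growth and activates transforming growth factor beta (27310298 to 27323542), had 377, 681 and 944 CPM in the normally fed and 338, 269 and 274 CPM in the high-intake-fed birds. The normally fed birds were widely spread and the high-intake-fed birds were closer together, and the groups did not overlap. Its log2 fold change was -1.19 ± 0.36 (adjusted p = 0.149, edgeR). Anosmin 1, an adhesion protein named for its part in the migration of olfactory and hormone neurons, had 6.57 to 10.4 CPM against 5.23 to 7.93 CPM (-0.35 ± 0.28), and extracellular matrix protein 1 had 2.96 to 9.10 against 2.36 to 5.23 CPM (-0.45 ± 0.48). The other thrombospondin models, on chromosomes 3, 4, 32 and 33, were scarce, at 0.258 to 14.05 CPM, with log2 fold changes of -0.34 to 0.35.

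Matrix Gla protein, an inhibitor of soft tissue calcification (chromosome 1, 171806190 to 171811161), was the matrix member whose high-intake-fed birds all lay above the normally fed ones, at 6.84, 9.63 and 4.45 CPM in the normally fed and 14.3, 15.8 and 15.1 CPM in the high-intake-fed birds. The high-intake-fed birds were close to each other. The log2 fold change was 1.11 ± 0.30 (adjusted p = 0.117, edgeR). Secreted phosphoprotein 24, a bone matrix and plasma protein made in liver, had 367, 368 and 638 CPM against 366, 223 and 253 CPM, where the lowest normally fed and the highest high-intake-fed bird nearly met (-0.71 ± 0.33). The fibronectin-type model (chromosome 7, 9031074 to 9085426), which has the domains of the plasma and matrix protein fibronectin, was the most abundant matrix member, at 4712, 5606 and 4230 CPM against 5796, 3866 and 4735 CPM. Its groups overlapped throughout (-0.02 ± 0.33, adjusted p = 0.987, edgeR).

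Some markers of matrix-forming cells also had groups that did not overlap. Of 12 stellate cell and fibroblast markers 6 could be matched to a model by description, and their summed level was 440 to 543 CPM in the normally fed and 225 to 343 CPM in the high-intake-fed birds. The groups of 4 of these 6 did not overlap and were lower in the high-intake-fed birds, decorin among them (218, 254 and 288 CPM against 152, 161 and 101 CPM), and lumican was higher (1.55 to 5.32 CPM against 5.84 to 6.51 CPM). Of 9 endothelial markers 4 were matched, summing to 229 to 348 CPM against 181 to 201 CPM. Of these, von Willebrand factor (49.2 to 89.8 CPM against 26.3 to 38.5 CPM) and LYVE1 (76.8 to 129 CPM against 45.2 to 64.9 CPM) were apart and lower, and PECAM1 (69.3 to 75.5 CPM against 57.5 to 73.7 CPM) and KDR overlapped. Collagen I and III and the PDGF receptors were not matched. Among all tested mRNAs 13.3% were apart and lower and 11.1% apart and higher. The counts of markers were not tested against these shares. None of the markers named here passed an adjusted p under 0.05, and the part of these cells in the matrix values was not tested. Hepatocyte markers (4 of 7 matched, led by albumin) summed to 225882, 246110 and 320024 CPM in the normally fed and 248703, 111097 and 203337 CPM in the high-intake-fed birds. Albumin and apolipoprotein B overlapped, while transferrin (22932 to 28216 CPM against 5232 to 11633 CPM) and fetuin (AHSG, 5474 to 7123 CPM against 114 to 4126 CPM) were apart and lower. Biliary markers (4 of 6) summed to 23.7 to 35.4 against 15.4 to 25.6 CPM and the matched adipocyte marker, adiponectin, to at most 1.21 CPM.

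**Figure D4:**
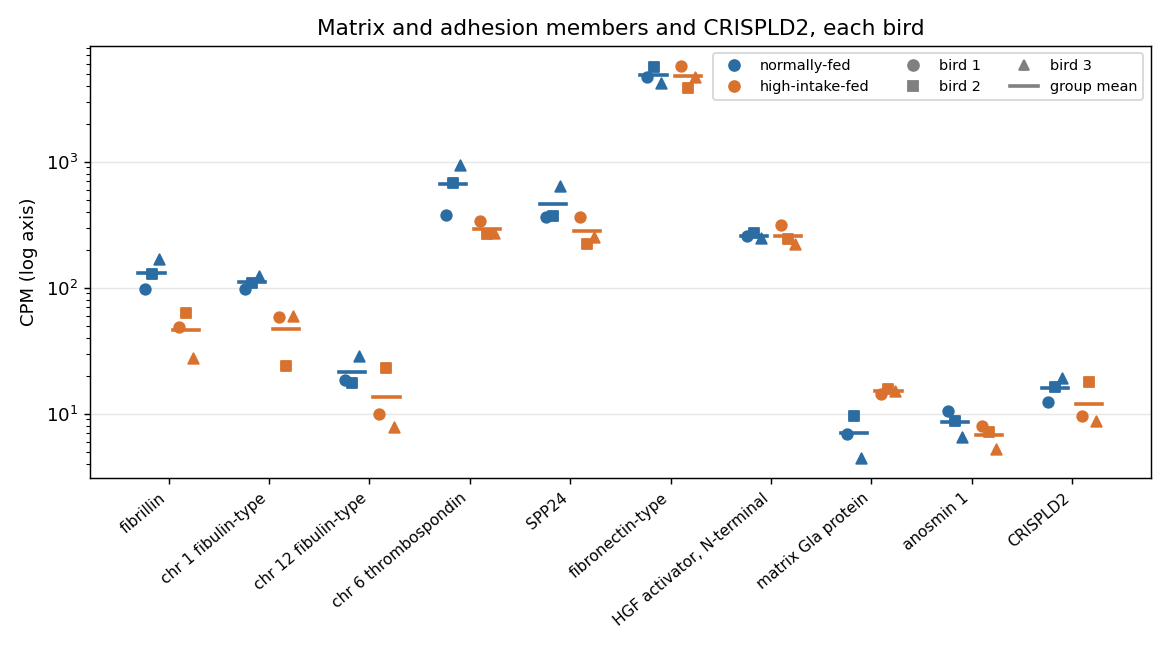
CPM on a log axis of 9 members of the matrix and adhesion role and CRISPLD2, with a point per bird (circle, square and triangle for birds 1, 2 and 3), normally fed in blue, high-intake-fed in orange, and a line at each group mean. The role includes the N-terminal model of the hepatocyte growth factor activator, a plasma protease. Fibrillin, the chromosome 1 fibulin-type model and the chromosome 6 thrombospondin have all orange points below the blue ones, matrix Gla protein has them above, at 14.3 to 15.8 against 4.45 to 9.63 CPM, and the fibronectin-type model overlaps.

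Beta defensin 2 had the largest fold change of all tested members. Beta defensins are short cationic peptides that kill bacteria, in birds made by heterophils and epithelia, and 3 tested models lay within 15.4 kb of chromosome 3. Beta defensin 2 (13815178 to 13816069, coding length 225 bases) had 43.3, 53.1 and 71.5 CPM in the normally fed and 765, 121 and 742 CPM in the high-intake-fed birds. All high-intake-fed birds were above all normally fed birds, with bird 2 6.13-fold below the next of its group. The log2 fold change was 3.28 ± 0.66 (adjusted p = 0.0587, edgeR), and 3.75 without high-intake-fed bird 2 (adjusted p = 0.00591, edgeR). Over all fits with a single bird left out the log2 fold change ran from 2.94 to 3.75, with adjusted p up to 0.216 (edgeR). Per kilobase of coding length this model was the second most abundant member, at 1330 CPM over the 6 birds, after complement C3 at 1952 CPM. In the deposited FPKM columns it is listed at 0 in every bird despite 27763 counts, so the values here rest on its counts.

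Its neighbours did not follow it. Beta defensin 1 (13805308 to 13805782) had 75.9, 94.4 and 128 CPM against 133, 77 and 47.7 CPM (-0.21 ± 0.38). Beta defensin 3 (13819052 to 13820673) had 71.7, 57.5 and 83.5 CPM against 375, 50.9 and 66.8 CPM, where high-intake-fed bird 1 alone stood out. Its log2 fold change was 1.21 ± 0.70 (adjusted p = 0.408), and -0.27 without that bird (edgeR). With the 3 models summed, a step chosen after their values were seen, the levels were 191, 205 and 283 CPM against 1273, 249 and 856 CPM, which overlapped (1.81 ± 0.54, adjusted p = 0.143, edgeR).

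Serum amyloid A, an acute phase protein that rides on lipoproteins, was high in 1 bird of each group. It had 839, 116 and 133 CPM in the normally fed and 2230, 172 and 146 CPM in the high-intake-fed birds. Bird 1 of either group was thus 6.3-fold and 13-fold above the next bird of its group. The log2 fold change of 1.23 ± 1.17 (adjusted p = 0.636) became 2.77 without normally fed bird 1 and -1.19 without high-intake-fed bird 1, and passed in neither case (edgeR). The replicate numbers of the groups name separate birds. The coding length of this model was 4227 bases, and it may hold more than the amyloid A gene. High-intake-fed bird 1, the highest in serum amyloid A, was also the highest in all 3 beta defensins. Macrophage markers (6 of 10 matched) summed to 1104 to 1270 CPM in the normally fed and 668 to 1076 CPM in the high-intake-fed birds. The gap was carried by the model taken as CD74 (518 to 638 CPM against 208 to 425 CPM), while MRC1, C1QA, C1QB, C1QC and CTSS overlapped. That model was the most abundant of 15 matched by description, and whether it is CD74 was not settled. The lymphocyte marker that was matched, J chain, had 31.6 to 40.7 against 5.56 to 23.6 CPM, and red cell markers (3 of 6) summed to 207 to 365 against 539 to 882 CPM. No markers of heterophils were listed, and the part of blood cells in these values was not tested.

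The cathelicidins, another family of antimicrobial peptides, were near the limit of detection, with at most 3.43 CPM in any bird for cathelicidin 2 and 20 and 6 counts over all libraries for the other two.

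**Figure D5:**
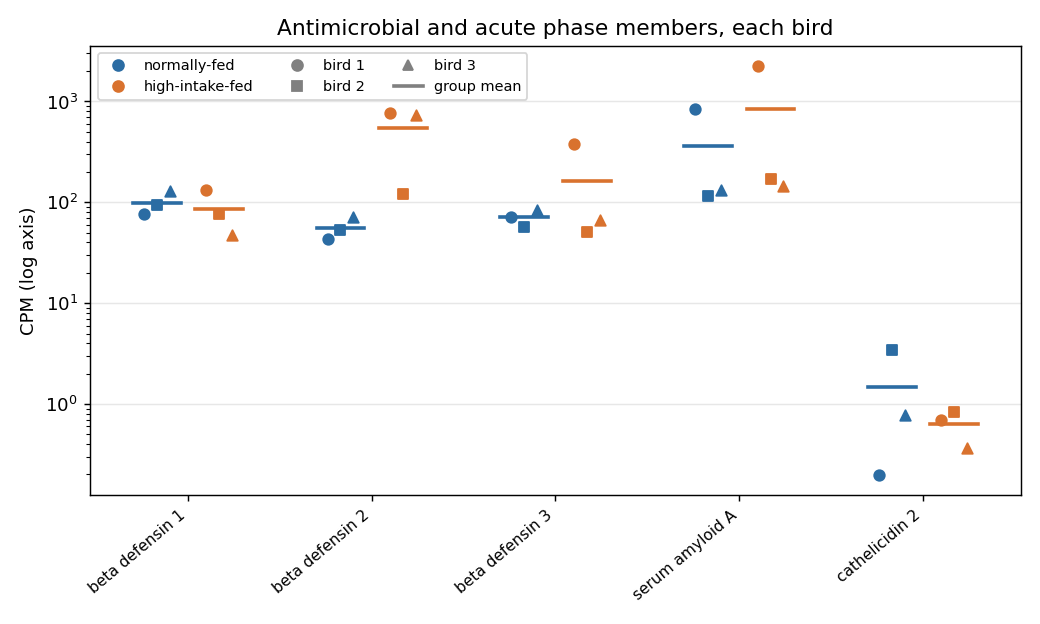
CPM on a log axis of the 5 tested antimicrobial and acute phase members, with a point per bird (circle, square and triangle for birds 1, 2 and 3), normally fed in blue, high-intake-fed in orange, and a line at each group mean. Beta defensin 2 has all orange points (121 to 765 CPM) above the blue ones (43.3 to 71.5 CPM), whereas in serum amyloid A bird 1 of each group stands far above the other two.

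The plasma kallikrein apple-domain model (chromosome 5, 58553684 to 58559149) holds the apple domains by which prekallikrein, the zymogen of a protease of the contact system, binds kininogen. It had 130, 103 and 100.5 CPM in the normally fed and 46.7, 25.1 and 64.8 CPM in the high-intake-fed birds, with no overlap (-1.29 ± 0.34, adjusted p = 0.112, edgeR). Without high-intake-fed bird 3 the change was -1.62 (adjusted p = 0.0447, edgeR). Over all fits with a single bird left out the change ran from -1.62 to -0.99, with adjusted p up to 0.292 (edgeR). The next model, 920 bases away on the same strand, is described as plasma kallikrein with the protease domain and was outside the members by rule. It had 105, 84.8 and 86.1 CPM against 42.1, 26.8 and 62.7 CPM (-1.07 ± 0.31, adjusted p = 0.132, edgeR), so both models were lower in the same birds. The N-terminal model of the hepatocyte growth factor activator on the same chromosome, another plasma protease, showed no such difference, at 248 to 272 CPM against 222 to 313 CPM (0.00 ± 0.24). Nor did the next model, 11356 bases away on the same strand, at 427 to 461 CPM against 315 to 559 CPM. It is described as this activator and holds the protease domain, and whether both are parts of the same gene was not tested.

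The Gla and laminin G model, built like protein S, a vitamin K dependent anticoagulant, was abundant but overlapped, at 311, 518 and 545 CPM against 540, 281 and 177 CPM (-0.46 ± 0.44). The chromosome 15 Gla model stayed at 0.626 to 1.65 CPM (-0.42 ± 0.53). The tested protease inhibitors gave no difference beyond the spread: tissue factor pathway inhibitor, which stops the start of clotting, had 13.6 to 18.8 CPM against 10.2 to 19.5 CPM (-0.09 ± 0.28). The Kunitz and WAP model had 2.00 to 6.58 against 1.81 to 6.22 CPM, and the chromosome 18 WFIKKN model, a binder of growth and differentiation factors, 0.473 to 1.46 against 0.508 to 0.765 CPM.

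Among enzymes of lipids and sugars, GPI phospholipase D, which is secreted by the liver and cuts lipid-anchored proteins from membranes (chromosome 2, 52520450 to 52547806), had 302, 331 and 347 CPM in the normally fed and 179, 39.9 and 210 CPM in the high-intake-fed birds. The groups were apart, and high-intake-fed bird 2 lay 4.48-fold below the next lowest bird. The log2 fold change was -1.19 ± 0.53 (adjusted p = 0.284, edgeR), and -0.75 without that bird. Colipase, the cofactor of pancreatic lipase, had 0.591 to 1.06 CPM against 5.70, 0.889 and 1.40 CPM (1.71 ± 0.74, adjusted p = 0.272, edgeR), and 0.50 without high-intake-fed bird 1. Of the pancreas markers 3 were matched and summed to under 1 CPM in every bird.

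The chromosome 2 neutral sphingomyelinase, from a family that releases ceramide and is not known as secreted, had 1.79, 1.595 and 1.93 CPM against 2.36, 7.24 and 3.65 CPM, with no overlap (1.31 ± 0.46, adjusted p = 0.188, edgeR). Paraoxonase 2, an intracellular lactonase of the paraoxonase family, was the most abundant lipid or sugar enzyme after GPI phospholipase D, and its groups overlapped, at 177, 230 and 187 CPM against 197, 320 and 166 CPM (0.20 ± 0.30). Acidic mammalian chitinase, which digests chitin, had 8.38 to 30.2 CPM in the normally fed and 4.38 to 27.7 CPM in the high-intake-fed birds, a wide spread within both groups (-0.11 ± 0.66). The 3 models of the group XII phospholipase A2 family had log2 fold changes of -0.53, 0.15 and 0.26, none past an unadjusted p of 0.05.

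Hormones and other signalling peptides were the largest role by number, with 48 members. Only 14 were tested, and the most abundant had a mean of 16.7 CPM. Some genes of brain, gut and pancreas hormones, such as insulin, galanin, ghrelin and somatostatin, gave 4 to 7 counts each over the 6 libraries. Others gave more and were tested, among them thyroliberin (303), neurotensin (134), calcitonin (125) and glucagon (47). Of these only neurotensin had groups apart, lower in the high-intake-fed birds (-0.92 ± 0.51, adjusted p = 0.388, edgeR). It had 1.395, 2.66 and 1.48 CPM against 1.391, 0.635 and 0.912 CPM, so that bird 1 of each group nearly met. The most abundant, the chromosome 16 stanniocalcin, a regulator of calcium and phosphate first known from fish, had 9.24, 10.8 and 17.6 CPM against 25.1, 13.5 and 24.3 CPM and overlapped in 1 bird (0.74 ± 0.34, adjusted p = 0.292, edgeR).

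The chromosome 19 agouti model, from a family that blocks melanocortin receptors and in mammals governs coat colour and appetite, had the second largest fold change of the tested members on very few reads. It had 0.332, 0.118 and 0.0644 CPM in the normally fed and 0.834, 1.02 and 1.58 CPM in the high-intake-fed birds, with no overlap (2.70 ± 0.71, adjusted p = 0.112, edgeR). It had 62 counts in all and is listed at an FPKM of 0 in every bird but high-intake-fed bird 1, and its log2 fold change was 3.53 without normally fed bird 1 and 2.36 to 2.88 without any other. The chromosome 27 endothelin, of a family that constricts vessels, had 1.196, 1.36 and 4.58 CPM against 0.417, 1.14 and 0.122 CPM (-2.07 ± 0.85, adjusted p = 0.248, edgeR), which became -1.14 without normally fed bird 3 and -3.13 without high-intake-fed bird 2. Guanylin, which drives salt and water secretion in the gut, had 1.66, 1.54 and 1.68 CPM against 0.765, 1.02 and 0.669 CPM, with no overlap (-0.99 ± 0.44, adjusted p = 0.282, edgeR). Adrenomedullin, a peptide that widens vessels, had 4.19 to 7.48 CPM against 3.82 to 14.5 CPM (0.38 ± 0.49), and prokineticin, a secreted signal for gut muscle and vessels, 4.96 to 6.11 CPM against 2.09 to 5.20 CPM (-0.53 ± 0.37). Thrombopoietin, the liver's hormone for thrombocyte production in mammals, had 3.16 to 3.79 CPM against 2.50 to 9.55 CPM (0.60 ± 0.48).

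Wnt ligands are lipid-modified proteins that bind Frizzled receptors and, in mammalian liver, set the zonation of hepatocytes. The table held 19 such models, of which 7 were tested, and the highest mean was 3.47 CPM. The chromosome 8 Wnt model (20283225 to 20299474) was the only tested one whose groups were apart, at 2.72, 1.30 and 2.32 CPM in the normally fed and 5.28, 4.44 and 4.74 CPM in the high-intake-fed birds (1.19 ± 0.37, adjusted p = 0.151, edgeR). By the deposited FPKM, all at 0.131 or below, its groups overlapped. The other 6, on chromosomes 1, 2, 7, 12, 21 and 28, lay between 0.193 and 2.43 CPM in all birds and overlapped. Their log2 fold changes ran from 0.18 to 0.74 with unadjusted p of 0.238 or more. All stayed above 0 under the other scalings, and those on chromosomes 2, 7 and 28 dropped to between -0.15 and -0.03 when a single bird was left out (normally fed bird 3 or high-intake-fed bird 2 or 3). Among the Wnt models with too few counts to be tested, a chromosome 1 model (29 counts in all) and the chromosome 16 model (7) were apart and higher. The chromosome 30 models (7 and 6 counts) were apart and lower.

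Of 33 models whose descriptions matched the words for partners of the pathway (receptors, secreted inhibitors and proteins that carry or relay the signal) 21 were tested. None rose and 2 fell at an adjusted p under 0.05, with 0.643% and 0.829% of all tested mRNAs called in those directions. A chromosome 19 model with the APCDD1 domain, found in a membrane inhibitor of Wnt signalling, had 21.3, 23.4 and 20.6 CPM against 2.16, 2.22 and 3.22 CPM (-3.09 ± 0.25, adjusted p = 0.00456, edgeR). Frizzled 4, a Wnt receptor, had 26.98, 25.5 and 25.7 CPM against 11.1, 13.1 and 7.54 CPM (-1.30 ± 0.24, adjusted p = 0.0495, edgeR). The other APCDD1 and Frizzled receptor models did not fall as far. The chromosome 2 models described as APCDD1 itself overlapped, with log2 fold changes of -0.55 and -0.43 (unadjusted p = 0.45 and 0.656, edgeR). Frizzled 3 leaned the other way (1.01, adjusted p = 0.252, edgeR) and overlapped. Both models of Frizzled 6 stood at 0.30 and Frizzled 9 at -0.26. Over all 21 tested models the median log2 fold change was -0.43. In 6 of them the groups were apart and lower and in none apart and higher, beside 13.3% and 11.1% of all tested mRNAs. The words also took in 3 lysophospholipid acyltransferases of the porcupine family, the Hedgehog transducer Smoothened and a dixin model with an acetyltransferase domain. Without these, a choice made after the data were seen, 16 of 28 models were tested, with none called higher, 2 lower and a median of -0.50.

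CAP domain proteins are secreted, cysteine-rich proteins whose roles in liver are little known. The chromosome 28 CRISP model had 3.39, 1.00 and 1.61 CPM in the normally fed and 4.10, 3.94 and 9.49 CPM in the high-intake-fed birds (1.55 ± 0.55, adjusted p = 0.193, edgeR). Its log2 fold change was 2.15 without normally fed bird 1, and ran down to 1.01 when another bird was left out. The chromosome 1 CRISP model went the other way, at 7.38, 5.85 and 7.02 CPM against 2.16, 4.06 and 4.86 CPM (-0.87 ± 0.35, adjusted p = 0.244, edgeR). Both were apart, while CRISPLD2, which in mammals binds bacterial lipopolysaccharide, overlapped at 12.4 to 19.3 CPM against 8.76 to 17.7 CPM (-0.41 ± 0.32).

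Type I interferons were hardly seen. These antiviral cytokines are made on infection. On chromosome 4 (11) and contig 77 (9) stood 20 models read as interferons or related cytokines, 18 of them with a coding length of 576 bases. The rest, of 612 and 819 bases, lay elsewhere on chromosome 4, and whether the latter is a type I interferon was not settled. No read was counted for 17 of the 20, which allows at most 0.0318 CPM each over the 6 libraries (3 counts, counting error only). Reads that match several copies may be lost, and the sources used here do not say how such reads were counted. The tested model, chromosome 4 interferon 1, had 0.258 to 1.53 CPM in the normally fed and 0.317 to 2.55 CPM in the high-intake-fed birds (0.64 ± 0.84).

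Set beside related models, the members were not the extracellular genes with the clearest differences. Of the 84 models with the term that the rule left out, 43 were tested, and 2 rose and 3 fell at an adjusted p under 0.05 (0.643% and 0.829% of all tested mRNAs), with a median log2 fold change of -0.47. Of 75 models with the terms for extracellular space or matrix but not this one, 53 were tested, and none rose and 1 fell, with a median of -0.33. At an unadjusted p under 0.05, lower models outnumbered higher ones by 16 to 5 and by 12 to 3 in these lists, and by 10 to 7 among the members, where 9.71% of all tested mRNAs were lower and 8.67% higher. These differences between lists were not tested.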

How the data were processed

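Ribosomal RNA was removed with probes before strand-specific library preparation. The authors filtered out remaining ribosomal reads (Bowtie2), mapped the rest to a goose genome (HISAT2) and deposited whole-number counts for each gene model. The authors also deposited FPKM values, which served here only as an alternative. Their processing notes name FastQC and BWA as well. The methods mention HTSeq in a sentence on Gene Ontology analysis, and whether it made these counts is not stated. Strand handling, the versions of these tools, the annotation and the build were not given. Depth was 14154910 to 16993373 counts per library, which limits members of a few counts to statements on detection.

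The 3 high-intake-fed and 3 normally fed libraries were compared by the quasi-likelihood test of edgeR 4.0.16 on TMM-scaled counts, without covariates, after its default filter (minimum count 10, total 15) had left 12914 mRNAs. Values after ± are standard errors of log2 fold changes unless marked otherwise, and p-values were adjusted by Benjamini-Hochberg over these mRNAs. The fit was tested on simulated data. Alternatives were DESeq2 1.42.0, limma 3.58.1 (trend, prior count 2), the exact test of edgeR, other scalings and filters, the replicate block, each library left out in turn, FPKM, and every model with the term. Summed loci and a narrower list of Wnt partners were added after the data were seen.

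Members, lists and tests were chosen with earlier results of these data known. Names and roles were read from the deposited descriptions, and the roles were refined after these had been read, not from values. The rule for named members took any past an adjusted p of 0.05 (there were none), the 10 most abundant, up to 10 in each direction with an unadjusted p under 0.05, groups apart and at least 5 CPM in the higher group (3 higher and 9 lower), every tested Wnt ligand, and up to 3 of smallest p in each role. Further members named were chosen after their values were seen. Cell type markers were matched by description, and the most abundant model was taken where several matched.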

Additional observations from a re-analysis of the deposited data

How the results depend on the processing

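The number of members past an adjusted p under 0.05 was 0 with edgeR's quasi-likelihood test and remained 0 with RLE size factors, with scaling that left out the 20 most abundant mRNAs, and with limma trend. DESeq2 called 10 of 85 (3 higher, 7 lower, beside 7.05% of all mRNAs). The exact test of edgeR called 8 of 83 (3 higher, 5 lower, beside 6.26%). No filter gave 2 (1 higher, 1 lower), library size alone 1 (lower) and a minimum of 10 counts in every library 1 (higher). Shares over all mRNAs are not given here for the other alternatives. Leaving out 1 bird gave 0 to 2 members, 0 to 1 higher and 0 to 2 lower: beta defensin 2 without high-intake-fed bird 2, and macroglobulin 5 and the plasma kallikrein apple-domain model without high-intake-fed bird 3. With all models that carry the term, 43 tested models joined the 83 tested members, and 5 were called (2 higher, 3 lower). At a fold over 2 and an unadjusted p under 0.05 this larger set gave 30, and the members alone 14 (16.9%). In the main fit 9.59% of all tested mRNAs passed that threshold. Over the other alternatives the number of members past it was 11 to 19, and the median log2 fold change stayed below 0 (-0.29 to -0.04). The replicate number as a block left 0 members called, 13 at a fold over 2 and a median of -0.29. The numbers do not pair the birds, since 2 birds of a number are separate and share only that number. Deviations of same-numbered birds correlated at -0.113, 0.021 and -0.145, beside -0.073 to 0.178 for birds of different numbers. So few correlations cannot settle pairing by themselves. The share of counts held by members was 3.14% and 2.27% on average, against 7.56% and 6.44% for all models with the term and 1.99% and 1.66% without complement C3, in the normally fed and high-intake-fed birds. Groups did not overlap in 16 of 82 members by FPKM (19.5%, beside 20.5% of all mRNAs with an FPKM). Among members that no setting called, serum amyloid A and beta defensin 3 changed sign when high-intake-fed bird 1 was left out. They were not alone in changing sign when a single bird was left out. Cathelicidin 2 went from -1.23 to as far as 0.38, macroglobulin 2 from 0.66 to -0.36 and chromosome 4 interferon 1 from 0.64 to -0.22. Smaller changes of sign were seen in others, among them tissue factor pathway inhibitor, beta defensin 1 and the chromosome 30 macroglobulin. The cause of these shifts was not tested. Counts of a few reads per library limit what can be said of the hormones, Wnt ligands and interferons.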
